A study of Mus musculus with 6 samples.

Results

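Expression of 10 genes of the integrated stress response was examined in mouse CD8+ T cells kept with or without palmitate: Ddit3, Atf4, Atf5, Atf3, Cebpb, Trib3, Chac1, Sesn2, Ppp1r15a and Asns. They were chosen by name, as the transcription factors CHOP and ATF4 with their relatives and well-known targets, and all 10 were found among the 29370 genes of the deposited matrix and passed the filter on low counts. The cells, cytotoxic lymphocytes, came from pancreas, spleen and lymph nodes of mice labelled WT. The control group (3 libraries) carried the treatment label Control, and the palmitate group (3 libraries) was kept in T cell medium with 100 µM palmitate, a saturated fatty acid; RNA was sequenced after 48 h. The protocol text that names palmitate is shared by all 6 samples, and the vehicle of the controls was not given in the sources used here. No label ties the libraries to separate animals or cultures; p-values therefore measure how much these libraries vary, and that variation may be technical.

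The integrated stress response starts when kinases that sense unfolded protein, missing amino acids, viral RNA or mitochondrial damage phosphorylate the translation factor eIF2. Most protein synthesis then slows, while mRNAs with upstream reading frames, such as those of ATF4 and ATF5, are translated better; ATF4 raises transcription of genes for amino acid supply and of CHOP, the product of Ddit3. Because ATF4 and ATF5 are controlled largely in translation, their mRNA level does not report their activity. In T cells the pathway is best known as a response to shortage of amino acids and to stress of the endoplasmic reticulum.

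Total counts per library lay between 16724588 and 29362276, with palmitate 3 the shallowest. All 12 markers of CD8 T cells were detected and 8 rose, with a summed level of 2356 to 2819 CPM (counts scaled to a common library total) in controls and 3102 to 3436 CPM with palmitate; Cd8a stood at 250 to 378 and at 476 to 545 CPM. The 4 markers of CD4 T cells were low but also higher with palmitate, at a sum of 1.96 to 2.81 CPM against 3.70 to 6.72 CPM, and 1 of the 2 tested rose; Cd4 itself stood at 0.12 to 0.241 and at 0.298 to 0.565 CPM. Markers of B and plasma cells summed to 184 to 251 CPM in controls and to 289.5 to 339 CPM with palmitate, and 3 of the 11 tested rose; of the 13, only Derl3 was at 0 in every library of the matrix, although the transcript tables held reads for it. Myeloid markers, 13 in all, summed to 31.1 to 41.5 CPM and to 39.9 to 69.0 CPM, with S100a8 and S100a9 at 0. The myeloid sums overlapped between groups. The sums of NK cell (168 to 187 against 146 to 163 CPM), erythroid and platelet (6.34 to 6.98 against 7.52 to 13.0 CPM) and stromal and endothelial markers (35.8 to 42.1 against 46.8 to 64.4 CPM) did not. The erythroid and platelet sum held moves both ways. In it Hbb-bs stood at 0.74 to 1.89 against 4.12 to 6.01 CPM, and Ppbp, with overlap, at 0.413 to 0.846 against 0.275 to 0.524 CPM. A single gene made up most of the NK sum, Eomes (166 to 185 against 141 to 161 CPM). The same held for Pecam1 in the stromal and endothelial sum (35.4 to 41.8 against 46.3 to 63.7 CPM). In the B and plasma cell sum it was Ighm (157 to 227 against 231 to 250 CPM). In the myeloid sum it was Cd74 (18.2 to 25.9 against 25.3 to 40.7 CPM). These sums therefore say little of the other markers in their lists. Among single tested genes, the CPM of 42.9% did not overlap between groups. Pancreatic markers summed to 3.10 CPM or less in every library, and 5 of 12, Pnlip, Ctrb1, Ins1, Ins2 and Sst, were at 0. The part of these other cell types in the values below was not tested, and in bulk RNA a change in the number of cells of a type and a change in RNA per cell cannot be told apart.

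The 250 bases before the annotated start of 4 genes are shown because they set the pair that rose against a pair of classical ATF4 targets that did not pass the test; Asns and Chac1 were picked for this after their values were seen. Sequences are RefSeq's for build GRCm38.p6, read 5′ to 3′ on the strand of the gene, and all 10 genes had such a window. Capitals mark a match to TGATGNAA, the core of the C/EBP-ATF response element that ATF4 binds with a C/EBP partner, searched on both strands. Ddit3 lies at chr10:127290543-127290792 (plus strand), Asns at chr6:7693210-7693459 (minus strand) and Chac1 at chr2:119350992-119351241 (plus strand). Atf5 has a window for each of its start sites, at chr7:44816659-44816908 for the transcript Atf5-201 and at chr7:44815659-44815908 for Atf5-202 (minus strand).
Ddit3: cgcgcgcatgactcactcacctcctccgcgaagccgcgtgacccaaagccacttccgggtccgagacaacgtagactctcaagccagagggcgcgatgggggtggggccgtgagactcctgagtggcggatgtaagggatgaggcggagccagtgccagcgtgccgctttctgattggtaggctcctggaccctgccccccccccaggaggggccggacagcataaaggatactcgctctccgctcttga
Atf5-201: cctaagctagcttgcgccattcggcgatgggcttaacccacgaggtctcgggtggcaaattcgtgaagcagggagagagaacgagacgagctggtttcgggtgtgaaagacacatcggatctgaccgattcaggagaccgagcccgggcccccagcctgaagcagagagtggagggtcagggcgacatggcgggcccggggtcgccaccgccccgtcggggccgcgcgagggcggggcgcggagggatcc
Atf5-202: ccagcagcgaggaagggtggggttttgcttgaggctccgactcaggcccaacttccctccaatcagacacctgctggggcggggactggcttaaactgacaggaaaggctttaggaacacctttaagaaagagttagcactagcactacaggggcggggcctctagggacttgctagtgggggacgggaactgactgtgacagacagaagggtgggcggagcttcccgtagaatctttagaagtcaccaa
Asns: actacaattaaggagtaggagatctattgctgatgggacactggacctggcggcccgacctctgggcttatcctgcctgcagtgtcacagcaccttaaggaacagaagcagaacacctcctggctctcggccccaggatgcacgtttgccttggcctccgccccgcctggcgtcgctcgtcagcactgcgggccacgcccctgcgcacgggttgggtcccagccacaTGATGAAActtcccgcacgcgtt
Chac1: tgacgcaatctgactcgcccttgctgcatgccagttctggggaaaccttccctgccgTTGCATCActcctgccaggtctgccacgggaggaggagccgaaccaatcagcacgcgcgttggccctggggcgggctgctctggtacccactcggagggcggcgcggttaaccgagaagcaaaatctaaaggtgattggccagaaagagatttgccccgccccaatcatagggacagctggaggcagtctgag
The motif TGATGNAA stood in the windows of 3 of the 10 genes, Atf3, Chac1 and Asns, and in 3.45% of all 32851 windows of this length. The cyclic AMP response element TGACGTCA, which ATF and CREB proteins bind, stood in that of Ppp1r15a and in 1.55% of all windows. The endoplasmic reticulum stress element bound by ATF6 was found in 0.113% of all windows and in none of the 10 genes' windows. A match is a description of the letters and not a binding site. The windows of Ddit3 and Atf5 hold no match to TGATGNAA within these bases, and bases further upstream were not searched. Those of Atf4, Cebpb, Sesn2, Ppp1r15a and Trib3, which did not pass the test, hold none either. No link between the motif and the calls is therefore drawn from the genes shown.

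Among the 5 transcription factors, Ddit3 and Atf5 rose with palmitate, whereas Atf4, Atf3 and Cebpb did not pass the test. These were 2 of the 10 genes called in edgeR's quasi-likelihood test at an adjusted p of 0.05, both higher; over all 12068 genes tested, 22.9% were called, 11.1% as rises and 11.7% as falls, so the share among the 10 is close to the background. With upper-quartile scaling the split over all genes was 1651 rises and 1052 falls, against 1343 and 1416 here, and the median of all genes moved from 0.02 to 0.08. DESeq2 called 3, the pair and Sesn2, against 28.7% of all genes to which it gave an adjusted p. The CPM of 2 of the 10, Ddit3 and Atf5, did not overlap between groups, as was the case for 42.9% of all tested genes.

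Ddit3 (ENSMUSG00000025408) encodes CHOP, a C/EBP-family factor that promotes cell death under unresolved stress. It stood at 10.2, 16.0 and 14.2 CPM in control libraries 1 to 3 and at 28.1, 38.2 and 40.9 CPM in palmitate libraries 1 to 3. Every palmitate library lay above every control library. The log2 fold change was 1.41 ± 0.20 (SE), a 2.65-fold rise (adjusted p = 0.00559), and it was called in all 6 fits that left out 1 library each. Between libraries of the same replicate number the ratio of palmitate to control was 2.77, 2.39 and 2.88.

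Atf5 (ENSMUSG00000038539) encodes a close relative of ATF4 that also takes part in the mitochondrial unfolded protein response. It stood at 3.68, 5.37 and 4.65 CPM in controls and 6.58, 10.4 and 9.84 CPM with palmitate. The groups did not overlap, and the ratio within the numbered pairs was 1.79, 1.93 and 2.12. Atf5 rose by 0.97 ± 0.22 on the log2 scale (adjusted p = 0.0201). The call was lost without control 3 (adjusted p = 0.0787), without palmitate 2 (0.0626) and without palmitate 3 (0.0669).

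Atf4 encodes the central factor of the pathway. Its counts were 479, 660.4 and 627 CPM in controls and 449, 608 and 575 CPM with palmitate, and the groups overlapped. In each of the 3 numbered pairs the palmitate library was the lower, at 0.938, 0.921 and 0.917 of its control. Its log2 fold change was −0.11 ± 0.15 (adjusted p = 0.62; adjusted p = 0.207 with the replicate block), and without palmitate 1 it was 0.00. The matrix held 95.2% of the reads of the gene's transcripts.

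Atf3 encodes a stress-induced factor that is also an early response gene of cell stimulation. It stood at 48.2, 126 and 111 CPM in controls and 50.9, 132 and 111 CPM with palmitate. Library 1 was low in both groups, by more than the groups differed, and the numbered pairs gave ratios of 1.06, 1.05 and 1.00. Its log2 fold change was 0.05 ± 0.50 (adjusted p = 0.957), and with the replicate block its SE was 0.06.

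Cebpb encodes C/EBPβ, a dimer partner of ATF4 and CHOP best known from myeloid and fat cells. It stood at 5.47, 7.74 and 7.65 CPM in controls and at 7.14, 6.29 and 9.43 CPM with palmitate, which overlapped. For Cebpb the log2 fold change was 0.13 ± 0.21 (adjusted p = 0.685). Its direction differed between the numbered pairs, with ratios of 1.31, 0.813 and 1.23. Myeloid cells also express it. Their markers summed to at most 41.5 CPM in controls and 69.0 CPM with palmitate. Most of that sum was Cd74 alone, so it says little of the other myeloid markers. The part of myeloid cells was not tested.

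**Figure D1:**
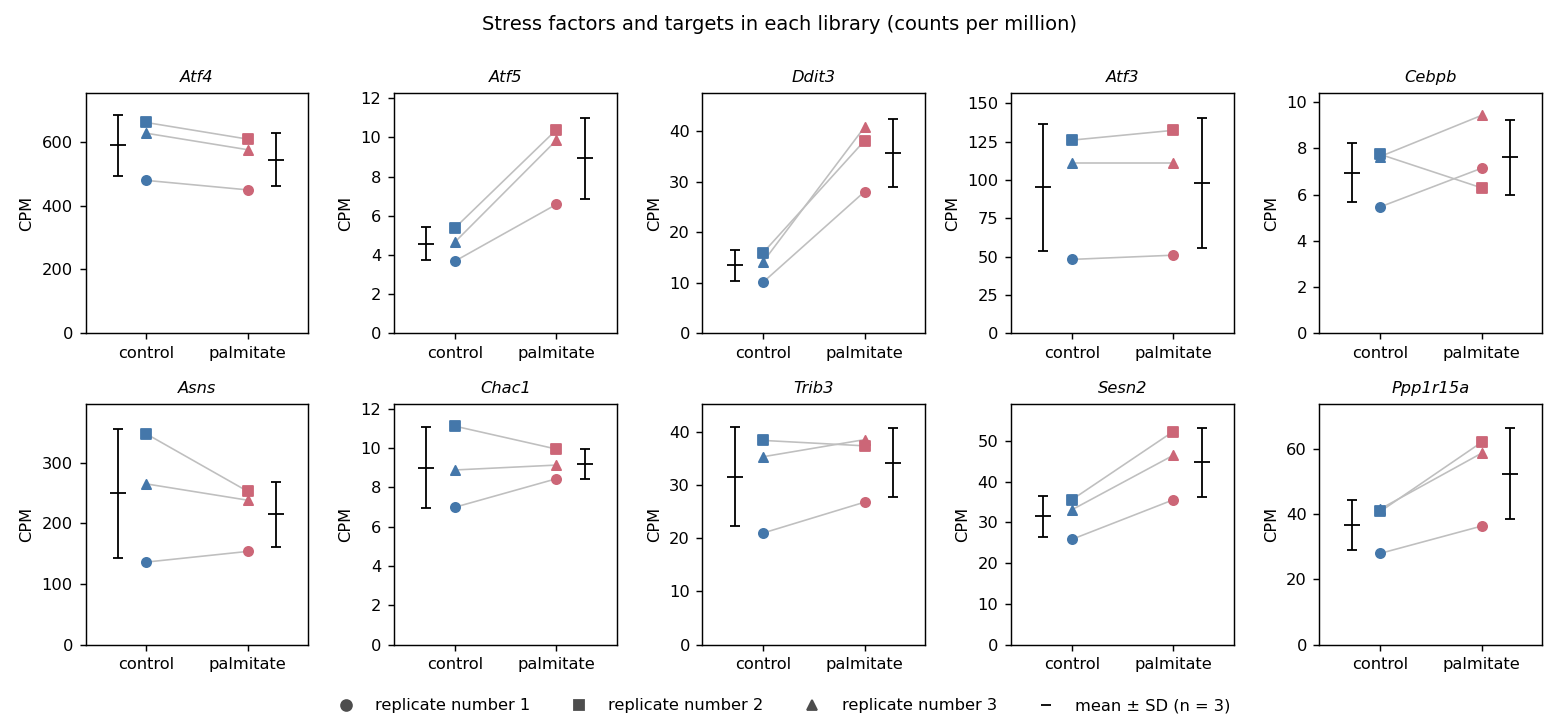
CPM (vertical axis of each panel, starting at 0) of the 10 genes in the 3 control (blue) and 3 palmitate (red) libraries. Grey lines join libraries with the same replicate number and black bars give mean ± SD (n = 3): Ddit3 and Atf5 are higher in all palmitate libraries than in any control library, and replicate number 1 lies lowest among controls in all 10 panels.

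Of the 5 targets, 0 were called in edgeR's test without the block; 1, Sesn2, had an unadjusted p under 0.05 and was called by DESeq2, and limma-voom called 0. Sesn2 and Ppp1r15a stood at adjusted p = 0.0648 and 0.166. With the replicate number as a block, Sesn2 and Ppp1r15a were called as rises. In that fit 4 of the 10 genes were called, against 33.1% of all tested genes. Asns, Chac1 and Trib3, the targets most often read as a sign of ATF4 activity, were called in neither fit.

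Sesn2 encodes sestrin 2, a leucine sensor that restrains the growth kinase complex mTORC1. It stood at 25.8, 35.6 and 33.1 CPM in controls and at 35.5, 52.3 and 46.5 CPM with palmitate, where palmitate 1 met the highest control. The numbered pairs gave ratios of 1.38, 1.47 and 1.40. The log2 fold change was 0.51 ± 0.17, and with the block 0.50 ± 0.08 (adjusted p = 0.00286). Without palmitate 1 the adjusted p of the unblocked test was 0.0357; it was also under the threshold with DESeq2 (0.0207), upper-quartile scaling (0.0415) and a minimum of 5 CPM (0.0482).

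Ppp1r15a encodes GADD34, which guides a phosphatase back to eIF2 and so ends the response. Its values were 27.9, 40.8 and 41.5 CPM in controls and 36.3, 62.0 and 58.6 CPM with palmitate. Palmitate 1 lay among the controls, but each pair was higher with palmitate, at 1.30, 1.52 and 1.41. The log2 fold change was 0.51 ± 0.24, and with the block 0.49 ± 0.08 (adjusted p = 0.00351). Without palmitate 1 the adjusted p was 0.0451.

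Asns encodes asparagine synthetase, a classical ATF4 target. It stood at 136, 347.5 and 265 CPM in controls and at 154, 253 and 238 CPM with palmitate. The pairs disagreed in direction, with ratios of 1.13, 0.727 and 0.898. The log2 fold change was −0.22 ± 0.38 (adjusted p = 0.714), and without control 2 it was 0.10.

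Trib3 encodes a pseudokinase that binds ATF4 and CHOP and dampens them. It stood at 20.9, 38.3 and 35.3 CPM in controls and 26.7, 37.3 and 38.5 CPM with palmitate, with overlap between groups. Its log2 fold change was 0.12 ± 0.25 (adjusted p = 0.762; adjusted p = 0.274 with the block), and without control 1 it was −0.11.

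Chac1 encodes an enzyme that breaks down glutathione. The values were 6.98, 11.1 and 8.88 CPM in controls and 8.43, 9.95 and 9.13 CPM with palmitate, the latter all within the control range. The log2 fold change was 0.03 ± 0.18 (adjusted p = 0.919), and it was −0.13 without control 1 and −0.04 without palmitate 2.

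**Figure D2:**
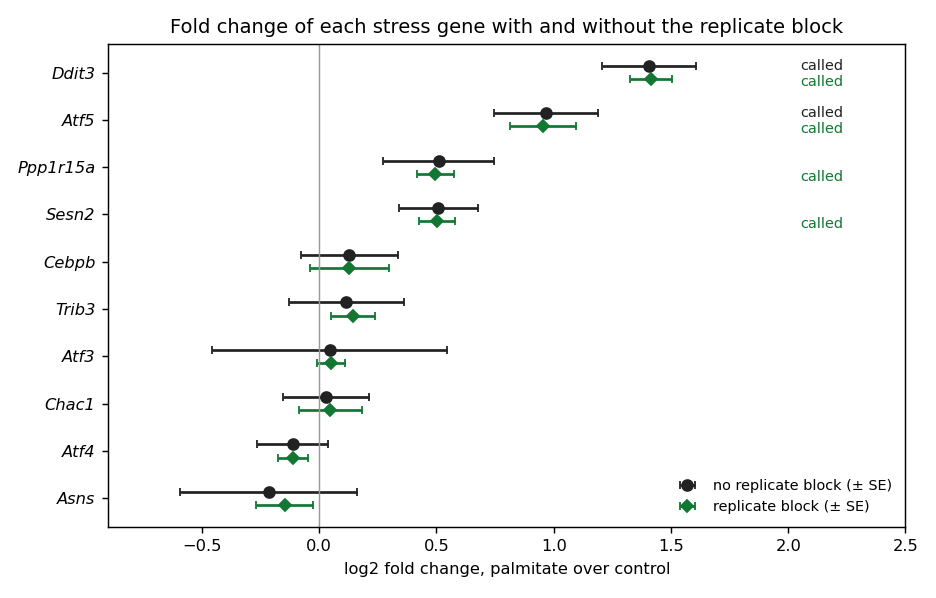
Log2 fold change of palmitate over control (horizontal axis) for the 10 genes, from the fit without (black circles) and with (green diamonds) the replicate number as a block; bars are ± SE and "called" marks an adjusted p under 0.05. Ddit3 and Atf5 are called in both fits, Sesn2 and Ppp1r15a with the block alone, and the bars of the block fit are the shorter in all 10 genes.

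The libraries numbered 1 held the least of these RNAs in both groups. Control 1 had the lowest CPM of the 3 controls for all 10 genes, and palmitate 1 the lowest of the 3 palmitate libraries for 9, with Cebpb as the exception. Over all tested genes, control 1 was lowest for 38.6%, palmitate 1 for 37.2%, and both were lowest for 20.3%. For Atf3 and Asns the SD among controls, 41.3 and 107 CPM, exceeded the difference between the group means.

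Reads of each gene per 100 reads of Atf4 in the same library were compared in addition, a measure chosen after the values were seen, because it needs no scaling between libraries. Ddit3 had 2.12, 2.42 and 2.27 reads per 100 Atf4 reads in control and 6.25, 6.28 and 7.11 in palmitate libraries, a log2 difference of 1.53. Sesn2 had 5.39, 5.39 and 5.28 against 7.91, 8.60 and 8.08, with an SD of 0.0641 among controls on a mean of 5.35. Both sets are closer together within a group than the CPM values are.

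Atf5 went from 0.768, 0.814 and 0.742 to 1.46, 1.71 and 1.71 reads per 100 Atf4 reads. For Ppp1r15a the figures were 5.83, 6.18 and 6.63 against 8.08, 10.2 and 10.2. Trib3 had 4.37, 5.80 and 5.63 against 5.95, 6.13 and 6.69, so that its groups also parted, by 0.26 on the log2 scale. For these 5 genes of 9 the groups did not overlap and palmitate was the higher, beside 18.8% of all tested genes whose ratio to Atf4 did not overlap in either direction. Atf4 itself was lower with palmitate in each numbered pair (0.938, 0.921 and 0.917 of its control), which raises every ratio. By CPM the groups of Trib3, Sesn2 and Ppp1r15a overlapped. Control 1 was the lowest control for all 10 genes, Atf4 among them, so dividing by Atf4 can narrow their spread more than that of other genes. The 18.8% is therefore not a like background, and no conclusion is drawn from the count. The exact permutation test over 3 against 3 libraries (two-sided) cannot go below p = 0.1, the value each of the 5 reached (0.18 after adjustment over the 9 ratios). For Atf3, Chac1, Asns and Cebpb the groups overlapped (exact permutation p = 0.3 to 0.8).

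Read as transcripts, all 3 Ddit3 transcripts above 1 TPM (abundance scaled for transcript length and library total) were higher in every palmitate library than in any control library, but no transcript passed edgeR's test. The share of all transcripts without overlap between groups was not computed, so the lack of overlap of single transcripts has no background here. For CPM of genes that share was 42.9%, in either direction. Over all 39731 transcripts tested 0 were called (0.0%), with 6297 at an unadjusted p under 0.05 (15.8%), 0 by limma-voom, and 3148 by DESeq2 (13.9% of those to which DESeq2 gave an adjusted p). Of the 10 genes' transcripts DESeq2 called the 3 of Ddit3, and edgeR at a minimum mean of 5 CPM called 1, Ddit3-201, beside 7.16% of the transcripts tested there. Salmon divides reads between transcripts that share sequence, which adds an error these tests do not see.

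The protein-coding Ddit3-201 went from 9.02, 14.9 and 12.2 TPM to 24.5, 33.7 and 33.7 TPM (log2 fold change 1.28 ± 0.27, edgeR adjusted p = 0.101; 0.00112 by DESeq2). Ddit3-203, also protein-coding and shorter, went from 2.42, 4.80 and 3.80 TPM to 12.1, 11.8 and 19.1 TPM (1.88 ± 0.37, edgeR adjusted p = 0.0934; 0.000775 by DESeq2). The form with a retained intron, Ddit3-202, went from 2.28 ± 0.392 to 5.14 ± 0.761 TPM (SD, n = 3). A fragment of 105 bases, Ddit3-204, belongs to a separate gene identifier with the same symbol, held 7.13 reads in control 3 and 7.21 in palmitate 2, and was left out.

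Atf5 has a protein-coding transcript from each of its start sites, whose upstream windows stand among the sequences. Atf5-201 stood at 1.00, 0.530 and 0.00 TPM in control and 2.28, 3.22 and 3.21 TPM in palmitate libraries, with no overlap. Atf5-202 stood at 1.41, 2.95 and 3.04 TPM against 2.34, 3.53 and 3.17 TPM, with overlap. The log2 fold changes were 2.45 ± 1.15 (edgeR adjusted p = 0.379) and 0.22 ± 0.38 (adjusted p = 0.845); the difference between them was not tested.

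Ppp1r15a-201 went from 11.8 ± 3.26 to 16.6 ± 4.02 TPM (SD, n = 3), with overlap between groups. The longer Ppp1r15a-202 went from 2.70 ± 0.571 to 4.37 ± 0.882 TPM (SD, n = 3), without overlap (edgeR adjusted p = 0.299). Ppp1r15a-203 was listed at 0 in all controls and at 3.73, 9.67 and 0 TPM in palmitate libraries. The matrix held 99.1% of the gene's reads. For Atf4 the protein-coding form Atf4-201 (423 ± 69.6 and 393 ± 46.9 TPM) and the form with a retained intron, Atf4-203 (16.5 ± 1.78 and 19.2 ± 2.01 TPM), had fold changes of opposite sign, −0.17 ± 0.19 and 0.18 ± 0.14 on the log2 scale (edgeR adjusted p = 0.748 and 0.604). Sesn2, Chac1 and Cebpb are represented by a single transcript each, and Trib3, Atf3 and Asns by a main form, Trib3-201, Atf3-201 and Asns-201.

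**Figure D3:**
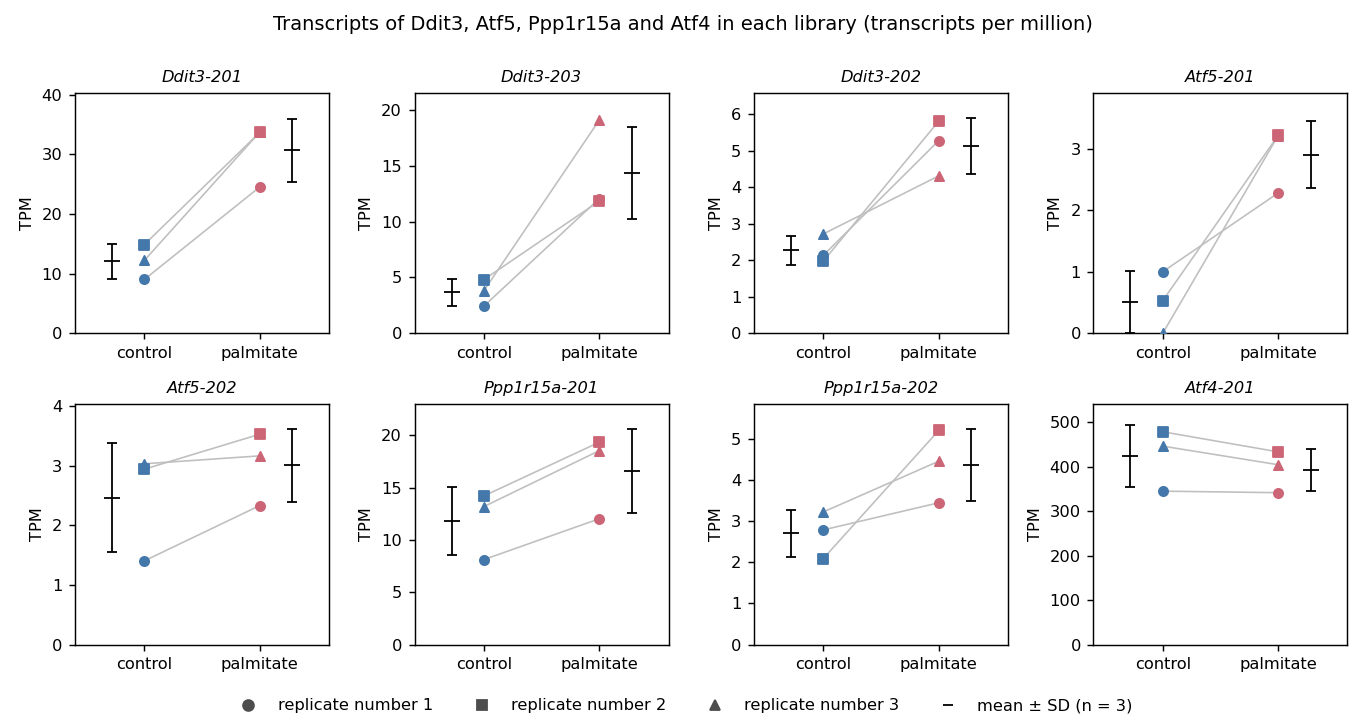
TPM (vertical axes from 0) of 8 transcripts in the control (blue) and palmitate (red) libraries, with lines joining libraries of the same replicate number and bars for mean ± SD (n = 3). The 3 Ddit3 transcripts, Atf5-201 and Ppp1r15a-202 do not overlap between groups, whereas Atf5-202, Ppp1r15a-201 and Atf4-201 do.

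Per unit of length the 10 mRNAs spanned a wide range of levels. Summed over its transcripts, Atf4 was the most abundant at 440 ± 68.0 TPM in control libraries and 412 ± 48.7 TPM in palmitate libraries. Asns came next (159 ± 67.3 TPM in control) and Atf3 after it (53.7 ± 23.5 TPM); the lowest Asns value, 88.7 TPM, lay above the highest Atf3 value, 78.7 TPM. Trib3 (18.9 ± 5.90 TPM), Ddit3 (18.0 ± 4.09 TPM) and Ppp1r15a (14.5 ± 3.15 TPM) did not differ beyond their spread in control cells. Below them came Sesn2 (10.1 ± 1.69 TPM), Cebpb (8.71 ± 2.12 TPM) and Chac1 (6.78 ± 1.58 TPM), whose ranges overlap in turn, and Atf5, the least abundant, at 2.97 ± 0.538 TPM. With palmitate Ddit3 reached 41.9, 51.3 and 57.1 TPM, beside 30.4 to 78.7 TPM for Atf3 and 17.1 to 22.9 TPM for Trib3.

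The genes whose pattern over the 6 libraries was most like that of Ddit3, by the root-mean-square difference of centred log2 CPM, were Lmna (0.15), Slc35e4 (0.17), Pcdhga8 (0.19) and Cd79a (0.20). The log2 CPM held a prior count of 2, which shrinks the changes of genes with few reads. Its part in these likenesses was not tested. All 4 genes stayed at 3.70 CPM or less: Lmna, the lamin A gene, lay between 1.14 and 3.70 CPM and the B cell gene Cd79a between 0.138 and 1.19 CPM.

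The rest of the pathway was read from 12 lists with 189 tested genes beside the 10, with 28 rises and 28 falls among them. Upper-quartile scaling gave 30 rises and 14 falls. The background is 11.1% of all tested genes for rises and 11.7% for falls, and the median log2 fold change of all tested genes was 0.02. In the fit with the block, against which the block counts of the lists are to be read, 16.5% of all tested genes rose and 16.6% fell. Falls over all tested genes came to 346 without control 3, 705 without control 2 and 1829 without control 1. Without palmitate 1, 2 or 3 they came to 769, 905 and 638. Rises were 344, 648 and 1604 without control 3, 2 and 1, and 674, 746 and 666 without palmitate 1, 2 and 3. Leave-one-out counts of the lists are to be read against these, with 1343 rises and 1416 falls in the main fit.

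Upstream of ATF4, genes of eIF2 and its regulators held more falls than rises. Of 22 tested, 8 fell and 1, Impact, an inhibitor of the kinase activator GCN1, rose (median −0.20). Eif2b1, a subunit of the exchange factor that recharges eIF2, fell by 0.40 on the log2 scale (adjusted p = 0.00995). The gene of the double-stranded RNA kinase PKR, Eif2ak2, went from 175 ± 24.0 to 116 ± 21.0 CPM (adjusted p = 0.0313). That of the haem-regulated kinase, Eif2ak1, went from 58.5 ± 1.05 to 48.1 ± 1.20 CPM (adjusted p = 0.0245). Eif2ak2 was called in 2 and Eif2ak1 in 1 of the 6 leave-one-out fits. The genes of the eIF2 kinases PERK and GCN2, Eif2ak3 and Eif2ak4, were not called. Their log2 fold changes were 0.21 and −0.11 (adjusted p = 0.176 and 0.463). The list and its falls also count Eif2a, which encodes eIF2A, a separate factor and not a subunit of eIF2. It went from 285 ± 15.1 to 228 ± 13.4 CPM (adjusted p = 0.0211). Dele1, which carries mitochondrial stress signals to the haem-regulated kinase, fell by 0.27 in the matrix, which held 77.9% of its reads, but did not pass in the transcript sums (adjusted p = 0.117). In the list of mitochondrial stress and protein quality, 5 of 17 fell, Dele1 among them, and 0 rose (median −0.20); 1 rise had an unadjusted p under 0.05 in edgeR, and DESeq2 and limma-voom each called 0 rises. The chaperonin gene Hspe1 fell by 0.50 (adjusted p = 0.014), the protease genes Afg3l2 by 0.34 (adjusted p = 0.0195; 91.6% of reads in the matrix) and Htra2 by 0.33 (adjusted p = 0.0414). With the block 8 of the latter list fell, and with upper-quartile scaling 4 of the eIF2 list and 2 of the mitochondrial list. Leaving out 1 library, the falls in the eIF2 list came to 0 without control 3, 1 without control 2 or palmitate 1, 2 without palmitate 2 or palmitate 3 and 8 without control 1. Those in the mitochondrial list came to 0 without control 3, 1 without control 2 or palmitate 1, 2 without palmitate 2 or palmitate 3 and 6 without control 1.

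Amino acid supply genes, which ATF4 is known to raise, were read from 3 lists, and falls outnumbered rises by more than 1 gene in that of the synthesis genes alone. Of 15 synthesis genes 4 fell and 0 rose in edgeR's test, and an unadjusted p under 0.05, DESeq2 and limma-voom likewise gave 0 rises; with the block 1 rose and 9 fell (median −0.21 without the block), and with upper-quartile scaling 2 fell. Psat1 and Psph of serine synthesis went from 661 ± 88.6 to 482 ± 60.3 CPM (adjusted p = 0.0353) and from 114 ± 23.7 to 75.9 ± 9.94 CPM (adjusted p = 0.0453). The mitochondrial folate enzyme gene Mthfd2 fell by 0.47 (adjusted p = 0.0456). Of 13 aminoacyl-tRNA synthetase genes 1, the threonine enzyme gene Tars, fell by 0.42 (adjusted p = 0.0273; 91.6% of reads in the matrix). None rose (0 at an unadjusted p under 0.05 in edgeR and 0 by DESeq2 or limma-voom), and with the block 5 fell, among them Cars, Gars and Nars (adjusted p = 0.00612, 0.00771 and 0.024; 41.2% of the reads of Nars in the matrix). Of 12 transporter genes Slc3a2, the heavy chain shared by several amino acid exchangers, rose by 0.38 (adjusted p = 0.0245) and Slc38a1, a glutamine carrier, fell by 0.27 (adjusted p = 0.0465). The matrix held 63.4% and 83.6% of their reads, and in the transcript sums neither passed (adjusted p = 0.167 and 0.0756). Slc7a1 and Slc43a1 had log2 fold changes of −0.19 and −0.17 (adjusted p = 0.263 and 0.341). The calls in the synthesis list came to 0 without control 3, 1 without control 2, palmitate 1, palmitate 2 or palmitate 3 and 5 without control 1. Tars was called in 2, Slc3a2 in 3 and Slc38a1 in 1 of the 6 fits.

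Targets outside amino acid supply included rises. Of 17 other ATF4 and CHOP targets 5 rose and 1, the mitochondrial synthetase gene Nars2, fell (median 0.23). Bcl2l11 and Bbc3, which encode the death-promoting BH3-only proteins BIM and PUMA, went from 51.5 ± 11.9 to 96.7 ± 7.64 CPM (adjusted p = 0.0113) and from 3.04 ± 0.141 to 5.83 ± 0.473 CPM (adjusted p = 0.00802). The autophagy receptor gene Sqstm1 rose by 0.75 (adjusted p = 0.00312), and Ndrg1, which hypoxia also induces, by 0.83 (adjusted p = 0.0105). Rises in this list came to 2 without control 3, and to 4 or 5 in the other fits that left out 1 library. Among paralogs of the 10 genes, Trib2 rose by 1.73 ± 0.19, from 15.7 ± 2.64 to 52.1 ± 11.7 CPM (adjusted p = 0.00312), and Sesn1 by 0.70 ± 0.10, from 21.2 ± 0.906 to 34.5 ± 4.18 CPM (adjusted p = 0.0055), each in all 6 leave-one-out fits. Sesn3, with 13.3% of its reads in the matrix, stood at a log2 fold change of 0.79 (adjusted p = 0.0526; 0.00262 in the transcript sums, where it was 0.60), and Batf3 at −0.65 (adjusted p = 0.168; adjusted p = 0.00357 with the block). Of the 9 paralogs 2 rose and 0 fell in edgeR's test (0 falls at an unadjusted p under 0.05 and 0 by DESeq2 or limma-voom), while the block called 3 rises and 1 fall.

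In the other arms of the unfolded protein response, 5 of 24 genes rose and 0 fell in edgeR's test, and there were 0 falls at an unadjusted p under 0.05, with DESeq2 or with limma-voom (median 0.04). Crebrf, a regulator of the CREB3 family of stress factors, went from 32.0 ± 0.494 to 73.0 ± 6.85 CPM (adjusted p = 0.00113). The chaperone genes Calr and Hyou1 rose by 0.29 and 0.25 (adjusted p = 0.0329 and 0.035), and the degradation ligase gene Syvn1 by 0.57 (adjusted p = 0.0228; 75.8% of reads in the matrix). Rises came to 1 without control 2, control 3, palmitate 2 or palmitate 3, 2 without control 1 and 3 without palmitate 1; Crebrf was called in all 6 of these fits. Among 24 tested bZIP partners and relatives 3 rose and 4 fell (median −0.02; 4 and 7 with the block, 3 and 1 with upper-quartile scaling). Bach1 and Bach2, repressors of the same dimer network, rose by 0.80 (adjusted p = 0.00412) and 0.60 (adjusted p = 0.00788) in all 6 fits. Atf1 fell by 0.37 (adjusted p = 0.0149; lost without control 3), and Maf rose by 0.84 at a low level (1.37 ± 0.233 to 2.45 ± 0.0515 CPM, adjusted p = 0.0336), a call lost in each of the 6 fits. Falls in the bZIP list came to 0 without control 3, to 1 without control 2 or any palmitate library and to 4 without control 1; limma-voom and the minimum of 5 CPM each gave 1.

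Around the products of Sesn2 and Chac1, 4 of 21 genes of amino acid sensing by mTORC1 rose and 4 fell (median 0.10). Rraga, a small GTPase that brings mTORC1 to the lysosome, fell from 43.2 ± 5.95 to 26.2 ± 2.92 CPM (adjusted p = 0.00855) in all 6 fits. Mios, of the complex that sestrins inhibit, fell by 0.29 (adjusted p = 0.0163), while Rptor of mTORC1 and its inhibitor Tsc1 rose by 0.48 and 0.58 (adjusted p = 0.0128 and 0.0209). Of 10 glutathione genes Gclc rose by 0.29 (adjusted p = 0.0247) and Gsr fell by 0.28 (adjusted p = 0.0265), with Ggt1 at a log2 fold change of 1.37 (adjusted p = 0.0648) and Gss at −0.29 (adjusted p = 0.0907). Gclc was called in 1 and Gsr in 2 of the 6 fits, and the list held 0 calls without control 2, control 3 or palmitate 3. Early response genes, which handling and stimulation induce and to which Atf3 and Ppp1r15a also belong, held 6 rises of 18 and 0 falls (edgeR; 1 fall at an unadjusted p under 0.05, DESeq2 1, limma-voom 0). The median was 0.26, and the block gave 9 rises and 1 fall. Btg2 and Dusp2 rose by 0.78 and 0.55 (adjusted p = 0.00293 and 0.00691) in all 6 fits. Zfp36 and Dusp1 rose by 0.55 and 0.81 (adjusted p = 0.014 and 0.0223), with 74.3% and 50.3% of their reads in the matrix. The rises also count the heat shock genes Hspa1a and Hspa1b, at group means of 2.74 CPM or less and called in 0 of the 6 fits. Fos, Fosb, Jun, Junb, Egr1, Egr2, Ier2 and Myc were not called in edgeR's test without the block (adjusted p = 0.127 to 0.967). With the block, Jun, Egr2 and Nr4a1 were called as rises (adjusted p = 0.00369, 0.0354 and 0.02). Ier3 was called as a fall with the block (adjusted p = 0.00133). Without the block Ier3 stood at a log2 fold change of −0.85 (adjusted p = 0.0598) and Nr4a1 at 0.32 (adjusted p = 0.104). In the sensing list the calls came to 1 without control 3, 3 without control 2, palmitate 1 or palmitate 2, 4 without palmitate 3 and 9 without control 1. In the early response list they came to 2 without control 3, 3 without control 2 or palmitate 2, 4 without palmitate 1 or palmitate 3 and 5 without control 1. The part of early response induction in the values of Ppp1r15a and Atf3 was not tested.

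**Figure D4:**
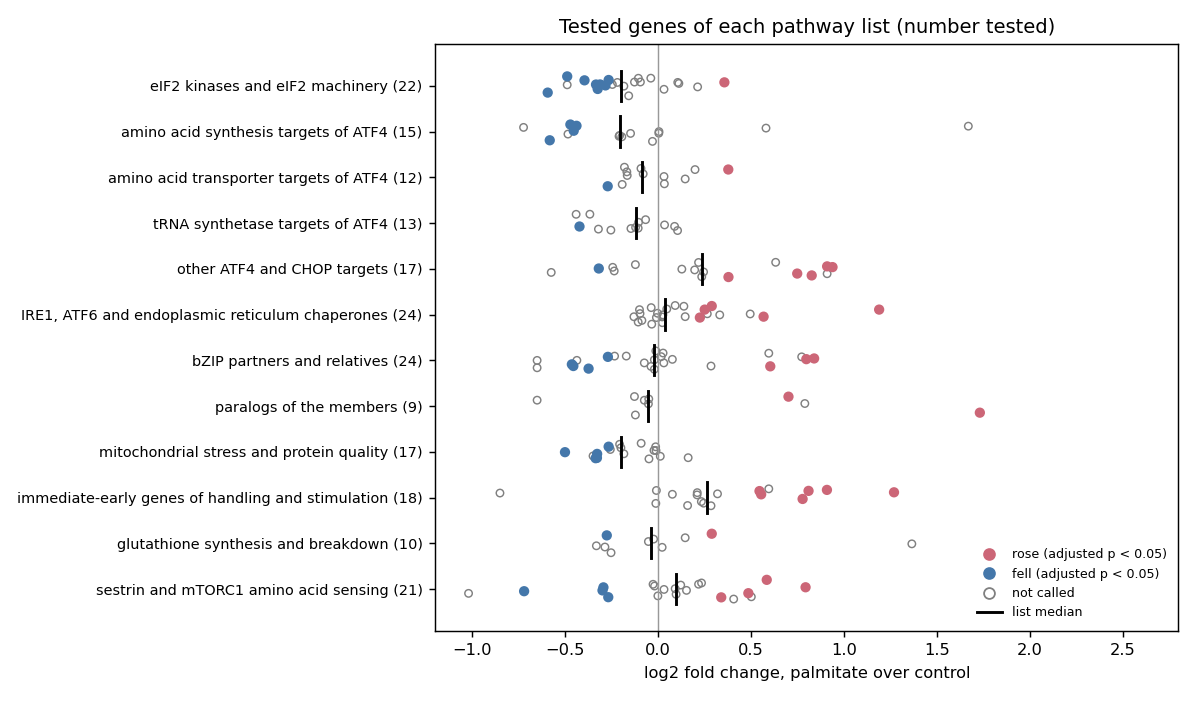
Log2 fold change of palmitate over control (horizontal axis) for every tested gene of the 12 lists, with the number tested in brackets; filled red and blue points passed the test as rises and falls, open points did not, and black lines are list medians. The medians of the eIF2, amino acid synthesis and mitochondrial lists lie at −0.20, −0.21 and −0.20, and those of the other ATF4 and CHOP targets and of the early response list at 0.23 and 0.26.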

How the data were processed

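RNA of 6 libraries was measured. The submitters' processing notes name Salmon 1.10.0 and Trim Galore 0.6.10, DESeq 1.42.0 and build GRCm39; settings and strand were not given in the sources used. The authors deposited estimated counts per gene, as whole numbers, and per library a Salmon table with expected counts and TPM per transcript (both per the file headers). Symbols and transcripts were matched by GENCODE M21, an earlier build: 29134 of 29370 gene identifiers and 114857 of 116224 transcripts. No matrix column was unused (0) and 0 rows named no gene. The matrix held all reads of 8 of the 10 genes.

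The count test was that of edgeR 4.0.16 in R 4.3.3 (TMM scaling, filterByExpr, robust quasi-likelihood fit, two-sided, Benjamini-Hochberg at 0.05 over all 12068 genes); transcript counts were rounded and tested likewise. The SE is the log2 fold change divided by the square root of F. CPM are on TMM-scaled library sizes. The fit was tested on simulated data. Alternatives were upper-quartile and RLE scaling, no filter, at least 5 CPM on average, limma 3.58.1 voom, DESeq2 1.42.0, the replicate block, transcript sums, and leaving out each library. Same-numbered libraries deviated together from their group means (r across genes 0.23, 0.13 and 0.15, against −0.19 to 0.06 for other pairs). Deviations from a group mean sum to 0 over its 3 libraries, so the values of other pairs are no independent contrast. All 3 values of same-numbered libraries being over 0.1, the numbers were treated as pairs in the replicate block and in the ratios of numbered pairs. The main fit and the permutation tests did not use the pairing. The 10 genes and the lists were chosen with earlier results of these data known. Named genes are the 10, up to 4 genes per list by smallest p (2 where none was called), transcripts of at least 1 TPM in a group's mean, and the 4 genes most like Ddit3. Impact, Nars2, Eif2ak3, Eif2ak4, the heat shock genes, the uncalled early response genes and the genes of the closing observations were named after their values were seen. So were the markers Eomes, Pecam1, Ighm, Cd74, Hbb-bs and Ppbp. Not every gene that the rule selects is reported here. One list entry, Samtor, matched no identifier. Exact permutation tests used Python 3.11.15.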

Additional observations from a re-analysis of the deposited data

How the results depend on the processing

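Leaving out each library in turn gave 690 to 3433 genes called against 2759 (690 without control 3), 1 (without control 3, palmitate 2 or palmitate 3) to 4 (without palmitate 1) of the 10 stress genes against 2, and 10 (without control 3) to 60 of the 189 list genes against 56, with 21 to 27 when control 2 or a palmitate library was left out. By the correlation check the numbered libraries were taken as pairs in the replicate block, an alternative to the main fit, which ignores the pairing. The replicate block called 4 of the 10 genes and 85 list genes (38 rises and 47 falls), beside 16.5% rises and 16.6% falls among all tested genes. It changed no other call among the 10. All 10 genes kept their direction under the 8 settings that keep every library, and Ddit3 and Atf5 stayed called. Leaving out single libraries gave log2 fold changes of −0.25 to 0.002 for Atf4, −0.28 to 0.35 for Atf3, −0.11 to 0.28 for Trib3, −0.13 to 0.20 for Chac1, −0.52 to 0.095 for Asns and −0.052 to 0.24 for Cebpb; the sign of each rests on the library left out. Of the 10 genes' transcripts, DESeq2 called 3, all of Ddit3, and the minimum of 5 CPM called 1, Ddit3-201, against 0, with 15453 transcripts tested at that minimum; the cause was not tested. Fold changes of transcripts ranged over −0.083 to 0.41 for Atf5-202, −0.39 to 0.26 for Atf3-201, −0.19 to 0.24 for Trib3-201, −0.21 to 0.18 for Chac1-201, −0.58 to 0.060 for Asns-201, −3.02 to 0.47 for Asns-202, −0.45 to 0.70 for Asns-205 and −0.13 to 0.20 for Cebpb-201 when single libraries were left out. Atf3-201 was at 0.043 and Chac1-201 at 0.064 with the minimum of 5 CPM, Chac1-201 at 0.019 and Asns-202 at 0.84 with limma-voom, and Chac1-201 at 0.002 and Asns-202 at 0.11 with the block; the cause was not tested. Transcript sums, added for the ratios to Atf4 after the data were seen, reversed none of the 9. With 3 libraries per group, a p above the threshold does not show that groups are alike; the part of depth was not tested.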

Other observations

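Some list genes did not pass the filter on low counts in the deposited matrix, which held few or none of the reads of several of them. Xpot, which exports tRNA from the nucleus and is a known ATF4 target, had 0 reads in the matrix and 53909 in the transcript tables. In the transcript sums, an alternative count, it fell by 0.47 ± 0.11 (SE) on the log2 scale (edgeR adjusted p = 0.0148), from 10322, 11545 and 11992 reads in control to 6834, 7837 and 5379 in palmitate libraries. Derl3, an endoplasmic reticulum degradation gene of secretory cells, had 0 reads in the matrix and 137 in the transcript tables, and rose by 1.26 ± 0.31 in those sums (adjusted p = 0.0181). The glutathione-cleaving enzyme gene Ggt5 had 42 matrix reads and 61 transcript reads, and rose by 1.5 ± 0.39 (adjusted p = 0.0213). The early response gene Egr3 had 27 reads in the matrix and 2945 in the transcript tables, and its log2 value in those sums was 0.29 ± 0.26 (adjusted p = 0.449). Of the secreted markers of the pathway, Gdf15 and Fgf21 had 7 and 2 reads in all 6 libraries together.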
